A study of Mus musculus with 6 samples.

Results

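The 8 genes described here are the aquaporin water channels *Aqp1*, *Aqp2*, *Aqp3*, *Aqp4*, *Aqp6* and *Aqp11* and the vasopressin receptors *Avpr2* and *Avpr1a*. They were taken by symbol from the 26903 genes listed in at least 1 of the 6 libraries (22241 to 22908 per library), and all 8 were listed in each. The libraries came from single cells of the renal cortex of male-labelled mice, 3 wild type (WT) and 3 lacking *Prdm16* in all cells (global knockout, KO). All 6 mice were 9 months of age, and no treatment is given for either group. The KO allele lacks exon 2, removed with CRISPR-Cas9, which shifts the reading frame of what follows. The knockout is not confined to a cell type, so these data do not place the origin of a difference in the class where it was measured. Each library is 1 mouse, so n = 3 per group throughout.

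Aquaporins are membrane channels through which water, and in some members glycerol or ions, crosses a cell. In the collecting system vasopressin binds its V2 receptor, the product of *Avpr2*, on the basolateral side of principal cells, raises cyclic AMP and activates protein kinase A. AQP2 then moves to the apical membrane, and water leaves the cell through AQP3 and AQP4 on the basolateral side. AQP1 is the constitutive channel of the proximal tubule, the thin descending limb and the descending vasa recta, AQP6 lies in vesicles of acid-secreting intercalated cells, AQP11 lies inside proximal tubule cells, and the V1a receptor, the product of *Avpr1a*, signals through calcium in intercalated and other cells.

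Between 3538 and 6276 cells per library were kept, 28486 in all, with 22965576 to 35465951 transcripts counted by unique molecular identifiers (UMIs) per library. Levels are UMIs scaled to the summed UMIs of the class in a library (CPM), and cells were grouped into 18 classes by marker genes that did not include the 8 genes. A class name such as principal cell-like (PC-like) means only that the cells resembled that type. An unnamed cluster of 1858 cells, 6.52% of all, entered no class. The library of WT replicate 2 held 297 CPM of *Xist* and that of KO replicate 1 held 307 CPM, against 0.218 CPM or less in the other 4, although every mouse was labelled male. Results of the 8 genes that passed a test are therefore given with and without these 2 libraries. *Prdm16* itself was at 32.1, 26.7 and 27.1 CPM over all WT cells and at 21.2, 25.3 and 23.6 CPM over all KO cells. Tags come from transcript 3′ ends, outside the deleted exon, so this level does not check the genotype. Of 28476 distinct cell barcodes, 10 occurred in more than 1 library.

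*Aqp2* and *Aqp6* are neighbours on mouse chromosome 15 (GRCm38, GENCODE annotation), at 99579055 to 99584547 and 99601400 to 99605477 on the plus strand, with 22345 bases between their starts and *Aqp5* between them. *Avpr1a* lies on chromosome 10, at 122448499 to 122453452. The 250 bases before the RefSeq start of these 3 genes (GRCm38.p6) are shown because the neighbours *Aqp2* and *Aqp6* were high in different cells and because *Avpr1a* differed between genotypes in 1 class. Capitals mark the core of the cyclic AMP response element (CGTCA, or TGACG on the other strand) and the letters GATA (or TATC), on either strand, and no 2 matches overlap. The windows of *Aqp2*, *Aqp6* and *Avpr1a* are chr15:99578806-99579055, chr15:99600950-99601199 and chr10:122448249-122448498, all read on the plus strand.
Aqp2: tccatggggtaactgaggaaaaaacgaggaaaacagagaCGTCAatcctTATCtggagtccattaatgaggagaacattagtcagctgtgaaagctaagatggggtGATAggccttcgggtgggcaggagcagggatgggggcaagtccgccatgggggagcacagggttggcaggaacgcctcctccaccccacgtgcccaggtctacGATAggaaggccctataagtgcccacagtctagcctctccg
Aqp6: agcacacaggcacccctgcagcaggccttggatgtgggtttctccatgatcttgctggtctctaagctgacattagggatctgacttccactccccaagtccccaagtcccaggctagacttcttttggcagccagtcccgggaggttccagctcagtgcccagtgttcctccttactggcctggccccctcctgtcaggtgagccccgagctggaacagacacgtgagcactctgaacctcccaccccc
Avpr1a: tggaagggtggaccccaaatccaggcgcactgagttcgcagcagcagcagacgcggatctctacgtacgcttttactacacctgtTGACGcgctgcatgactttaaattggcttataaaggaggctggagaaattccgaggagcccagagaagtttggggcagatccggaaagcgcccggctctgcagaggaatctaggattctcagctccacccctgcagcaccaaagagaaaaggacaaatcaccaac
The *Aqp2* window held 1 cyclic AMP response core, starting 211 bases before the start, and 3 GATA matches. Neither motif was in the *Aqp6* window, and the *Avpr1a* window held 1 cyclic AMP response core 165 bases before the start and no GATA. Over 32851 promoter windows of this length, 17.8% held the cyclic AMP response core and 53.6% held GATA. A match is a description only. Windows were found for 7 of the 8 genes. That of *Avpr2* held 2 GATA matches and that of *Aqp3* held 1, with no cyclic AMP response core in either.

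The heat map of levels by class shows *Aqp2*, *Aqp3* and *Avpr2* together in PC-like, connecting tubule-like (CNT-like) and, at lower levels, both intercalated classes. *Aqp6* peaked in type A intercalated-like (IC-A-like) cells and *Avpr1a* in type B intercalated-like (IC-B-like) cells. *Aqp1* had its highest levels in parietal epithelial-like (PEC-like), proximal tubule-like (PT-like) and glomerular and arterial endothelial-like (EC-like) classes. *Aqp11* was highest in PT-like cells, followed by arterial EC-like and CNT-like cells. For each gene the classes were ordered by mean level and neighbouring classes were compared within the 6 libraries by an exact two-sided sign-flip permutation test, 40 comparisons in all. The smallest p that 6 pairs allow is 0.0312, and the steps that reached it had an adjusted p of 0.0735 (Benjamini-Hochberg), so no step passed 0.05. Steps at which all 6 libraries had the same order are named below as such.

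**Figure D1:**
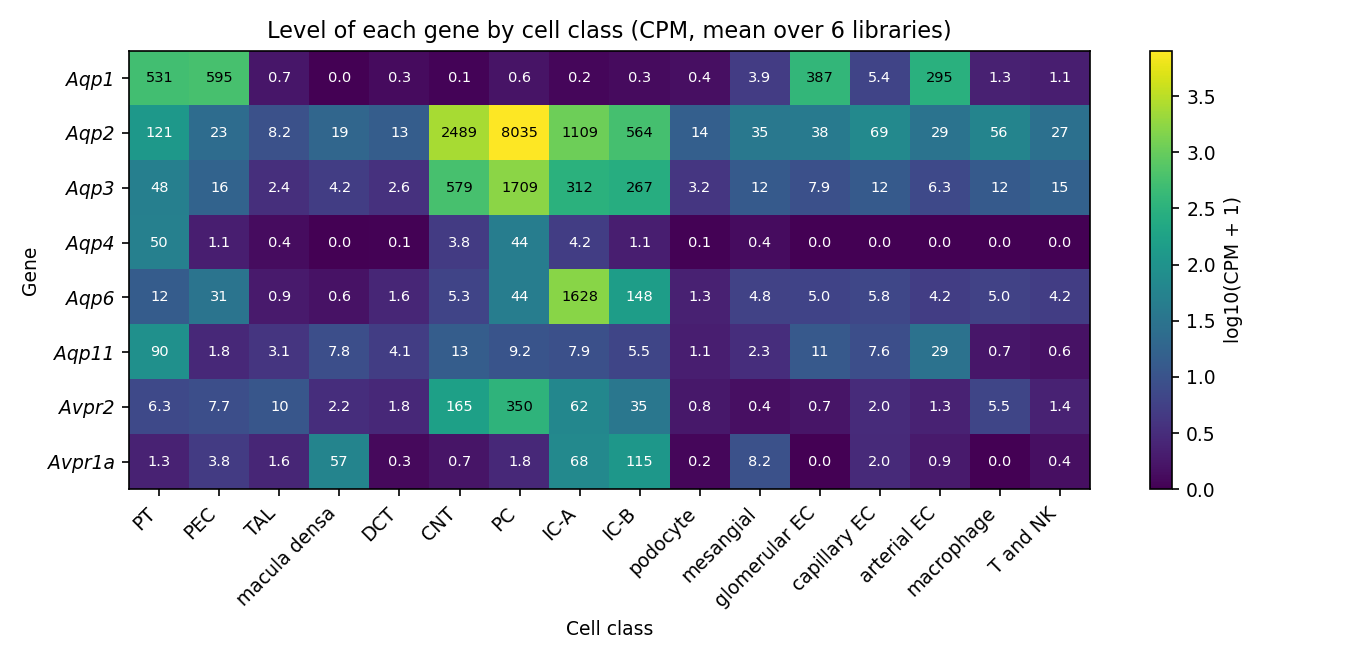
Mean level over the 6 libraries (CPM, printed in each cell) of the 8 genes (rows) in 16 cell classes (columns), with colour on a log10(CPM + 1) scale. *Aqp2* reached 8035 CPM in PC-like cells and *Aqp6* 1628 CPM in IC-A-like cells, whereas the *Aqp4* value of 49.6 CPM in PT-like cells came mainly from the 11 cells of KO replicate 1.

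*Avpr2*, the receptor through which vasopressin raises cyclic AMP, was highest in PC-like cells (350.2 ± 32.5 CPM, SD, n = 6), then in CNT-like (165 ± 30.1 CPM), IC-A-like (62.3 ± 21.3 CPM) and IC-B-like cells (34.7 ± 9.11 CPM). All 6 libraries had this order at each of these steps and also at the step down to thick ascending limb-like (TAL-like) cells, at 10.02 ± 4.45 CPM, although the ranges of both intercalated classes overlapped. PC-like and CNT-like cells together held 37.6% and 39.4% of all *Avpr2* UMIs. Within the CNT-like class, a cluster of 2300 cells had 201 CPM and another of 432 cells had 6.81 CPM, so the class mean joins unlike cells. An *Avpr2* UMI was found in 56.6 to 72.0% of PC-like cells per library and in 0 to 0.598% of podocyte-like cells, a type without the receptor, at median depths of 4306 to 7456 and 2662 to 5404 UMIs. Thinned to 1000 UMIs per cell, the shares were 24.4 to 31.4% and 0 to 0.159%. *Avpr2* lies on chromosome X, at 73892102 to 73895502 on the plus strand, inside *Arhgap4* on the minus strand. Whether the counting used strand is not given in the sources used here. *Arhgap4* was between 1.61 and 5.40 CPM in PC-like cells, and its part in the *Avpr2* counts was not tested.

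The genotypes had nearly the same *Avpr2* level in PC-like cells. The WT libraries held 407, 305 and 346 CPM and the KO libraries 349, 344 and 349.7 CPM. The KO values lay inside the WT range, and the log2 fold change, KO over WT, was 0.0018 (standard error 0.13, adjusted p = 0.997 by edgeR). Adjusted p-values here and below are from edgeR's quasi-likelihood test on counts summed per library, with Benjamini-Hochberg adjustment over all genes tested in the class. In CNT-like cells the log2 fold change was 0.29 (standard error 0.16, adjusted p = 0.523 by edgeR). Within the larger CNT-like cluster alone *Avpr2* was at 198, 149 and 246 CPM in WT against 193, 242 and 179.8 CPM in KO, with overlap. In TAL-like cells the log2 fold change was -0.63 (standard error 0.31, adjusted p = 0.344 by edgeR). In IC-B-like cells all 3 WT libraries, at 41.9, 45.9 and 39.5 CPM, were above the KO libraries, at 24.0, 25.1 and 32.0 CPM, but the adjusted p was 0.211 (edgeR). Near-empty barcodes, with fewer than 100 UMIs, carried 33.8, 28.2 and 35.0 CPM of *Avpr2* in WT against 22.6, 20.9 and 28.1 CPM in KO, also lower in every KO library, and their part in the IC-B-like values was not tested.

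*Avpr1a*, the calcium-coupled vasopressin receptor, had a different pattern. It was highest in IC-B-like cells (115 ± 21.6 CPM, SD, n = 6), followed by IC-A-like (68.3 ± 9.49 CPM) and macula densa-like cells (57.3 ± 40.8 CPM). The step from IC-B-like to IC-A-like held in 6 of 6 libraries with no overlap of the ranges, whereas IC-A-like and macula densa-like levels overlapped. Mesangial-like cells followed at 8.21 ± 5.52 CPM, and no other class had a mean above 3.78 CPM. IC-B-like cells held 55.1% of all *Avpr1a* UMIs, IC-A-like cells 29.3% and macula densa-like cells 6.64%. Among podocyte-like cells at most 0.181% of a library's cells had an *Avpr1a* UMI. No UMI was found in glomerular EC-like or macrophage-like cells, which allows up to 0.996 and 0.892 CPM over the 6 libraries together (3 UMIs of the class total, counting error only).

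In macula densa-like cells, the tubule cells that sense salt at the vascular pole of the glomerulus, *Avpr1a* fell in the KO libraries. The WT libraries held 70.4, 81.0 and 122 CPM and the KO libraries 20.1, 23.7 and 27.0 CPM. Every WT library was above every KO library. The log2 fold change was -1.86 (standard error 0.27, adjusted p = 0.000238 by edgeR), a WT level 3.62 times the KO level, from 228 UMIs in all. *Avpr1a* was the 1 member that passed the filter on low counts in this class, and it was called, where 1.07% of the 6358 genes tested there were. It was called in 18 of 18 alternative settings, of which 1, a doublet rule, is the same as reported by construction, with log2 fold changes from -2.14 to -1.63. Without the libraries that held *Xist* it was -1.81 (adjusted p = 0.00689 by edgeR), from 2 libraries per group.

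The share of macula densa-like cells with an *Avpr1a* UMI was 27 of 70, 35 of 67 and 34 of 59 cells in the WT libraries, or 38.6, 52.2 and 57.6%. In the KO libraries it was 7 of 72, 12 of 46 and 16 of 56 cells, or 9.72, 26.1 and 28.6%. The groups did not overlap, although the median depth of the class was 9841, 9251 and 8835 UMIs in WT against 5432, 9602 and 13789.5 UMIs in KO. Thinned to 1000 UMIs per cell, the shares were 9.06, 7.94 and 13.5% in WT and 1.13, 3.56 and 2.43% in KO, against at most 0.104% of podocyte-like cells. The 5 macula densa markers summed to 1124 to 1419.9 CPM in WT and 1249 to 1530.0 CPM in KO, with none at 0, and the 7 TAL markers to 3815 to 7671 CPM and 5811 to 6825 CPM. Both sums overlapped between genotypes, but single TAL markers did not. *Egf* was at 2025, 1291 and 879 CPM in WT against 525, 614 and 606 CPM in KO, and *Cldn16* was at 87.0, 69.8 and 89.1 CPM in WT against 28.2, 40.2 and 34.7 CPM in KO. *Ppp1r1a* was also lower in every KO library than in any WT library, and *Cldn10* was higher in every KO library. *Umod* was at 4675, 2908 and 2096 CPM in WT against 4777, 5218 and 4427 CPM in KO, where the groups overlapped. Their part in the *Avpr1a* result was not tested. Within the macula densa list *Nos1* stayed between 415 and 487 CPM, while *Pappa2* was at 258.6, 198 and 291 CPM in WT against 795, 648 and 420.5 CPM in KO, and *Ptgs2* at 266, 644 and 346 CPM in WT against 119, 230.1 and 285 CPM in KO. These markers were named after their values were seen, and no test was made.

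*Avpr1a* did not pass the test in the other classes where it was measured. In IC-B-like cells the WT libraries held 144, 86.2 and 102 CPM and the KO libraries 109.9, 137 and 113 CPM. The groups overlapped, and the log2 fold change was 0.16 (standard error 0.18, adjusted p = 0.858 by edgeR). In IC-A-like cells it was -0.0069 (standard error 0.15, adjusted p = 0.995 by edgeR). In TAL-like cells, which adjoin the macula densa, levels were low, at 2.39, 2.10 and 2.26 CPM in WT against 0.979, 1.47 and 0.476 CPM in KO, without overlap but with a log2 fold change of -1.26 that missed the threshold (standard error 0.43, adjusted p = 0.132 by edgeR). Near-empty barcodes held 12.2 to 14.2 CPM of *Avpr1a* in WT and 6.56 to 8.62 CPM in KO, lower in every KO library, above every library of TAL-like cells and below every library of macula densa-like cells. Their part in these results was not tested. The difference between macula densa-like and intercalated-like cells in the genotype effect was not tested.

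**Figure D2:**
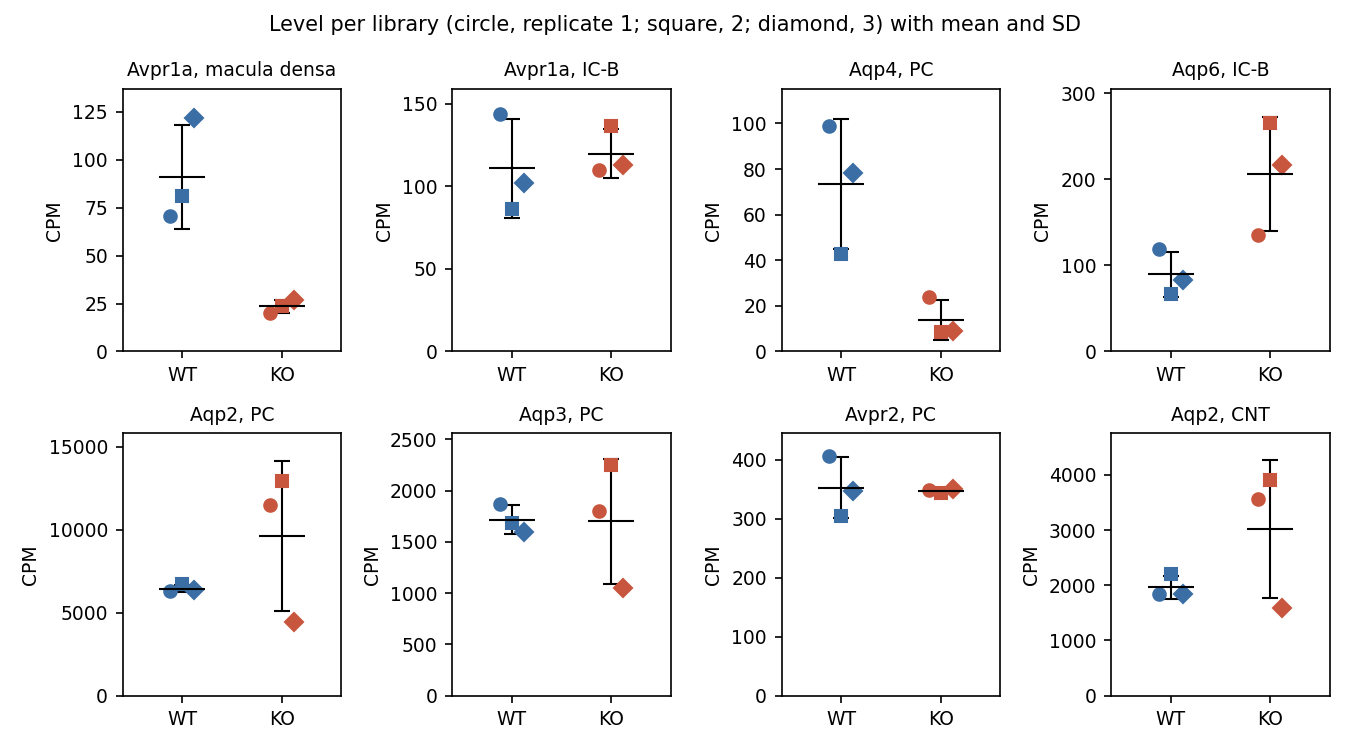
Level (CPM) in each of the 3 WT and 3 KO libraries, with a line at the mean and bars of 1 SD, for 6 of the genes in the class named above each panel. The WT and KO points stand apart for *Avpr1a* in macula densa-like cells, *Aqp4* in PC-like cells and *Aqp6* in IC-B-like cells, and overlap in the other 5 panels.

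*Aqp2*, the apical water channel that vasopressin regulates, was the most abundant of the 8 genes. It reached 8035 ± 3354 CPM in PC-like cells, 2489 ± 988 CPM in CNT-like, 1109 ± 140.3 CPM in IC-A-like and 564 ± 171 CPM in IC-B-like cells (SD, n = 6), with the same order in 6 of 6 libraries and no overlap at any of these steps. PC-like cells held 45.6% and CNT-like cells 35.0% of all *Aqp2* UMIs. The larger CNT-like cluster had 2999.9 ± 1015 CPM and the smaller one 62.6 ± 41.8 CPM. An *Aqp2* UMI was found in 92.7 to 98.1% of PC-like cells per library and in 3.22 to 7.32% of podocyte-like cells, or in 90.4 to 98.5% and 0.946 to 2.60% after thinning to 1000 UMIs.

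Part of the *Aqp2* signal lay in cells not known for it. Near-empty barcodes carried 286 to 553 CPM, above the mean of every class outside the collecting system, where means lay between 8.22 CPM in TAL-like and 121 CPM in PT-like cells. In IC-A-like cells 30.1 to 58.1% per library had an *Aqp2* UMI, at median depths of 14866 to 16816 UMIs, and 16.9 to 40.9% after thinning, above the podocyte-like share on both scales. The ratio of *Aqp2* to *Aqp3* UMIs had a median of 4.11 in PC-like, 3.52 in IC-A-like and 2.21 in IC-B-like cells and of 3.81 in near-empty barcodes. The IC-A-like level depended on how the classes were made. With the 8 genes and the pathway genes allowed to shape the clusters, it dropped from 1109 to 42.8 CPM, while the PC-like level was 8004 CPM.

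The *Aqp2* levels of the KO libraries disagreed with each other in PC-like and CNT-like cells. In PC-like cells the WT libraries held 6281, 6719 and 6366 CPM and the KO libraries 11487, 12916 and 4440.1 CPM. KO replicates 1 and 2 were above every WT library and KO replicate 3 below every one, so the groups overlapped. The log2 fold change was 0.58 (standard error 0.28, adjusted p = 0.388 by edgeR). CNT-like cells repeated the pattern, with 1840.4, 2207 and 1848 CPM in WT against 3563, 3898 and 1580.3 CPM in KO and a log2 fold change of 0.58 (standard error 0.23, adjusted p = 0.292 by edgeR). Within the larger CNT-like cluster alone the levels were 2415, 2739 and 2685 CPM in WT against 3924, 4490.1 and 1747 CPM in KO, and the mean of KO over that of WT was smaller than in the class. The part of the mix of clusters in the class value was not tested. With classes from per-cell scores the CNT-like log2 fold change was 1.14 (adjusted p = 0.0268 by edgeR), and with no filter on low counts both classes were called (adjusted p = 0.00124 in PC-like and 0.00383 in CNT-like cells by edgeR). These are the same 6 mice, so the second class is not a separate sample of mice. Without KO replicate 3 the log2 fold change was 0.90 (adjusted p = 0.00412 by edgeR) in PC-like and 0.85 (adjusted p = 0.00975 by edgeR) in CNT-like cells. KO replicate 3 also had the highest median mitochondrial share of all libraries, 29.6% against 19.1 to 25.6% in the other 5, and its part in the result was not tested. In IC-B-like cells every KO library was below every WT library, at 477, 514 and 373 CPM against 614, 873 and 530.3 CPM, with a log2 fold change of -0.50 that missed the threshold (standard error 0.17, adjusted p = 0.332 by edgeR).

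*Aqp3*, the basolateral channel for water and glycerol, followed *Aqp2* across classes at a lower level. It was at 1709 ± 395 CPM in PC-like, 579 ± 198 CPM in CNT-like, 312 ± 60.1 CPM in IC-A-like and 267 ± 69.3 CPM in IC-B-like cells (SD, n = 6). The ranges of CNT-like and IC-A-like cells overlapped, and so did those of both intercalated classes. In PC-like cells the WT libraries held 1872, 1688 and 1594 CPM and the KO libraries 1799, 2253 and 1049 CPM. KO replicate 2 was the highest and KO replicate 3 the lowest, and the log2 fold change was 0.0010 (standard error 0.21, adjusted p = 0.999 by edgeR). The ranges did not overlap in IC-A-like cells, at 376, 397 and 297 CPM in WT against 266, 277 and 256 CPM in KO, nor in IC-B-like cells, at 276, 384 and 299 CPM and 212, 234 and 194 CPM. Both classes were lower in KO, by log2 fold changes of -0.41 and -0.52 that missed the threshold (adjusted p = 0.243 and 0.183 by edgeR). Near-empty barcodes had 119.7, 164 and 129 CPM of *Aqp3* in WT against 112, 89.9 and 74.5 CPM in KO, and were lower in KO too. Their part in the intercalated values was not tested. 

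*Aqp4*, the second basolateral water channel of principal cells, lies on chromosome 18, at 15389496 to 15410982 on the minus strand. It was rare, with 834 UMIs in all retained cells, of which 607 (72.8%) were in PC-like cells. The PC-like mean was 43.5 ± 37.6 CPM (SD, n = 6), 10.5 times that of IC-A-like cells (4.16 ± 4.74 CPM), and CNT-like cells had 3.81 ± 3.35 CPM. PC-like cells exceeded IC-A-like cells in 6 of 6 libraries, but the ranges over libraries overlapped. PT-like cells had a nominally higher mean, 49.6 ± 103 CPM, which rested on 1 library: KO replicate 1 had 259 CPM from 11 cells, and the others had 0 to 25.5 CPM. No *Aqp4* UMI was found in 6 of the 16 tested classes (macula densa-like, glomerular, capillary and arterial EC-like, macrophage-like and T and NK-like cells), which allows up to 0.769 to 1.70 CPM per class.

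In PC-like cells *Aqp4* fell in the KO libraries. The WT libraries held 98.8, 42.6 and 78.5 CPM and the KO libraries 23.9, 8.64 and 8.85 CPM. Every WT library was above every KO library, and the spread within WT was more than 2-fold. The log2 fold change was -2.37 (standard error 0.38, adjusted p = 0.00643 by edgeR), a WT level 5.16 times the KO level. *Aqp4* was 1 of 6 members tested in this class that was called, beside 2.44% of the 9585 genes tested. It was called in 19 of 19 alternatives, again with 1 the same by construction, with log2 fold changes from -3.29 to -2.08 and adjusted p up to 0.0408 (edgeR or DESeq2). Without the libraries that held *Xist* it was -3.29 (adjusted p = 0.000495 by edgeR).

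An *Aqp4* UMI was found in 89 of 329, 48 of 326 and 71 of 364 PC-like cells of the WT libraries, or 27.1, 14.7 and 19.5%. In the KO libraries it was found in 9 of 157, 6 of 121 and 9 of 218 cells, or 5.73, 4.96 and 4.13%, although the median depth was higher there, at 6028 to 7456 UMIs against 4306 to 5522. Thinning to 1000 UMIs gave 8.003, 3.39 and 6.86% in WT and 1.48, 1.19 and 0.670% in KO. The podocyte-like share was at most 0.181% and 0 after thinning. Other measures of the class moved with genotype. PC-like cells were 6.40 to 8.05% of the WT libraries' cells and 2.502 to 6.16% of the KO libraries' cells. The 8 principal cell markers summed to 12199 to 13785 CPM in WT and 8715 to 10998 CPM in KO, the 6 CNT markers to 2190.2 to 3839 CPM and 997 to 1709.8 CPM, and the 3 markers shared by both intercalated types to 122 to 214 CPM and 32.3 to 83.5 CPM. None of the 3 ranges overlapped, no marker of these lists was at 0, and their part in the *Aqp4* result was not tested. Single markers did not always follow the sum. *Fxyd4*, *Kcne1* and *Hsd11b2* were lower in every KO library, while *Apela*, *Npnt*, *Ptges*, *Rhcg* and *Tmem229a* overlapped. Of the CNT markers, *Calb1* and *S100g* were lower in every KO library, and *Slc8a1*, *Trpv5* and *Klk1* overlapped. *Kl* was higher in KO, at 178, 182 and 181 CPM in WT against 243, 224 and 250 CPM in KO. The 10 thin limb markers overlapped, at 2091 to 4088 CPM in WT and 2359 to 3129 CPM in KO, with *Bst1* and *Corin* at 0 in every library.

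The genotype effect was then compared between PC-like and CNT-like cells by an interaction term with the mouse as a block. The part of the mix of CNT-like clusters in this comparison was not tested. *Aqp4* had an interaction of -2.24 (log2, PC minus CNT, standard error 0.76, adjusted p = 0.234 by edgeR), and in CNT-like cells alone its log2 fold change was -0.033 (standard error 0.80). Without the libraries that held *Xist* the interaction was -3.27 (adjusted p = 0.00111 by edgeR), so *Aqp4* was called there and not with all libraries. Of the 6 members tested, 0 were called by edgeR and 0 by DESeq2, with 2 at an unadjusted p under 0.05, beside a background of 1.13% of the 10934 genes tested. Over all cells together *Aqp4* was at 10.6, 3.83 and 7.67 CPM in WT and between 1.44 and 1.70 CPM in the 3 KO libraries, without overlap, and just missed the threshold (log2 fold change -2.23, standard error 0.37, adjusted p = 0.0544 by edgeR). All 8 genes were tested there and edgeR called 0, with 3 at an unadjusted p under 0.05, while DESeq2 called 1, *Aqp4*. The background over all cells was 0.593%. Sums over all cells also move with the shares of the classes. Near-empty barcodes had 4.18, 2.83 and 6.002 CPM of *Aqp4* in WT against 1.69, 0.268 and 0.388 CPM in KO, lower in every KO library than in every WT library, and their part in the results was not tested.

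*Aqp6*, a channel of intracellular vesicles that conducts anions, marked IC-A-like cells. It was at 1628 ± 339 CPM there (SD, n = 6), 11.01 times the IC-B-like mean of 148 ± 78.1 CPM, in 6 of 6 libraries and without overlap. IC-A-like cells held 85.1% of all *Aqp6* UMIs. Of IC-A-like cells 96.6 to 99.1% per library had an *Aqp6* UMI, against 0.312 to 0.996% of podocyte-like cells, and 68.3 to 83.7% against 0 to 0.261% after thinning. Its chromosomal neighbour *Aqp2* peaked in PC-like cells, where *Aqp6* was at 44.3 ± 28.0 CPM, but both genes were present in PC-like and intercalated-like cells (Pearson's r = 0.690 over the 18 classes, a description). In IC-A-like cells the WT libraries held 1597, 1540.0 and 1447 CPM and the KO libraries 1488, 2305 and 1390.2 CPM. KO replicate 2 stood above the rest, the other KO libraries did not, and the log2 fold change was 0.19 (standard error 0.17, adjusted p = 0.782 by edgeR).

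In IC-B-like cells, the bicarbonate-secreting type, *Aqp6* rose in the KO libraries by a narrow margin. The WT libraries held 119, 67.2 and 82.9 CPM and the KO libraries 135, 266 and 217 CPM. All KO libraries were above all WT libraries, KO replicate 1 only slightly. The log2 fold change was 1.25 (standard error 0.25, adjusted p = 0.0493 by edgeR). It was 1 of 6 members tested that was called in this class, beside 0.638% of the 9555 genes tested. The call held in 8 of 19 alternatives, 1 of them the doublet rule that is the same by construction, with log2 fold changes from 0.11 to 1.51. It was lost with a replicate block (adjusted p = 0.156 by edgeR) and with no doublet removal (0.121). Single libraries mattered too, since leaving out 1 WT library lost it for replicates 2 (0.167) and 3 (0.187), and so did leaving out 1 KO library for replicates 2 (0.259) and 3 (0.176). A lower limit of 1000 UMIs per cell reduced the log2 fold change to 0.30 and a mitochondrial limit of 30% to 0.11. Without the libraries that held *Xist* it was 1.33 (adjusted p = 0.0205 by edgeR). In IC-B-like cells 29.5, 21.4 and 24.4% had an *Aqp6* UMI in WT and 37.4, 46.7 and 48.1% in KO, or 8.33, 4.76 and 6.72% and 9.50, 15.8 and 15.1% after thinning.

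Markers of other cell types were measured in the same IC-B-like cells. The 4 markers of type A alone summed to 56.1 to 75.4 CPM in WT and 17.1 to 47.1 CPM in KO, lower in KO without overlap. Of the 4, only *Kit* was lower in every KO library than in any WT library, and *Slc4a1*, *Dmrt2* and *Slc26a7* overlapped. The sum of these 4 was also lower in KO within IC-A-like cells, and the part of the markers in the *Aqp6* result was not tested. The 4 markers of type B alone overlapped, at 3153 to 3771 CPM and 3172 to 4303 CPM. The 8 principal cell markers were at 2161 to 2985 CPM in WT and 1086 to 1723 CPM in KO, without overlap. Of these markers the type A marker *Slc26a7* was at 0 in 3 of the 6 libraries. In PC-like cells *Aqp6* went the other way, at 39.3, 66.3 and 88.9 CPM in WT against 15.4, 23.8 and 32.3 CPM in KO. The groups did not overlap, and the log2 fold change of -1.41 just missed the threshold (standard error 0.34, adjusted p = 0.0544 by edgeR). DESeq2 called it (adjusted p = 0.00336), and so did edgeR with a replicate block (log2 fold change -1.42, adjusted p = 0.0019) and with no filter on low counts (adjusted p = 2.86e-10). Leaving out WT replicate 1 also brought a call (adjusted p = 0.00926 by edgeR), and classes from per-cell marker scores turned the direction, to 0.30. In every library but WT replicate 3 the PC-like level of *Aqp6* was below that of the library's own near-empty barcodes, which held 63.3 to 72.6 CPM.

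**Figure D3:**
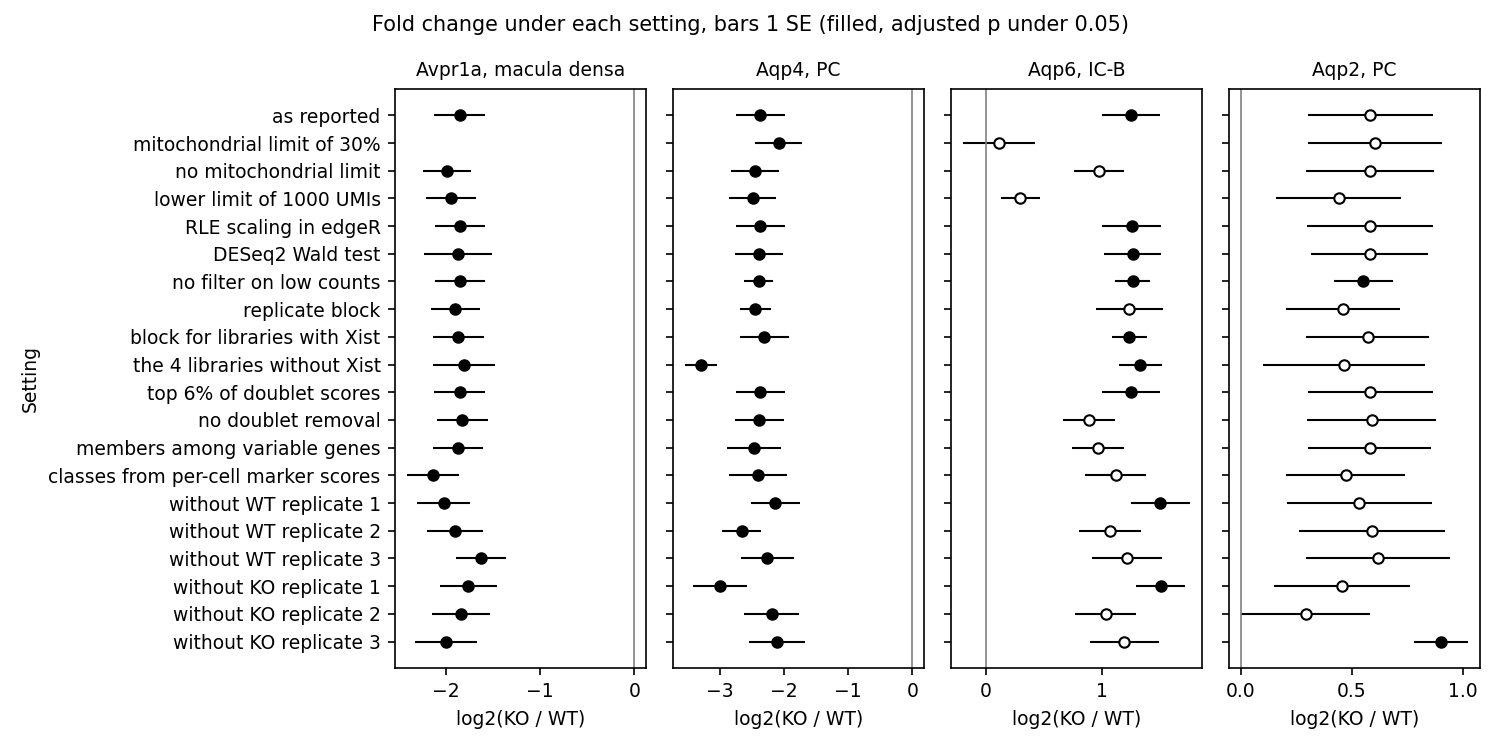
Log2 fold change, KO over WT, with bars of 1 SE, of 4 genes in the class named above each panel, as reported (top) and under each alternative setting (rows), where filled points have an adjusted p under 0.05. Points are filled in every row with a value for *Avpr1a* and *Aqp4*, in the top row and 8 of 19 alternatives for *Aqp6*, and in 2 of 19 alternatives for *Aqp2*, whose largest value, 0.90, came without KO replicate 3.

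*Aqp1*, the constitutive water channel, was found mainly in 4 classes, both epithelial-like and endothelial-like. Means were 595 ± 652 CPM in PEC-like, 531 ± 265 CPM in PT-like, 387 ± 767 CPM in glomerular EC-like and 295 ± 219 CPM in arterial EC-like cells (SD, n = 6), and the order of these 4 was not the same in all libraries. The next class, capillary EC-like, had 5.39 ± 12.1 CPM. The large SDs came from few cells. In PEC-like cells 20 of 329 cells with 5 or more *Aqp1* UMIs held 99.4% of the UMIs, and these cells also held 3476 CPM of *Fst* and 968 CPM of *Slc4a11*, against 4.91 and 10.7 CPM in the rest of the class. *Fst* was one of the thin limb markers used to name classes. In arterial EC-like cells 35 of 1661 cells held 87.7% of the UMIs. Those cells had 290.0 CPM of *Slc14a1*, the urea transporter of the descending vasa recta, against 2.64 CPM in the rest. These cells were chosen by *Aqp1*, so their companions are given as a description.

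By library, *Aqp1* in PEC-like cells was at 884, 99.4 and 1060.4 CPM in WT against 1528, 0 and 0 CPM in KO. The 2 KO libraries at 0 held 48 and 86 PEC-like cells, which allows a share of up to 6.25 and 3.49% of cells with a UMI (counting error only) and does not limit the share that express the gene. In glomerular EC-like cells WT replicate 1 was at 1951 CPM and the other 5 libraries at 37.8 to 104 CPM. Leaving out the 2 cells of WT replicate 1 with the most *Aqp1*, which held 239 and 89 UMIs, brought it to 179.6 CPM. In arterial EC-like cells the values were 612, 41.9 and 245 CPM in WT against 229, 506 and 138 CPM in KO, with overlap. In PT-like cells, the segment best known for AQP1, every KO library was above every WT library, at 932, 675 and 639 CPM against 209.9, 341 and 391 CPM. The log2 fold change of 1.15 missed the threshold (standard error 0.36, adjusted p = 0.352 by edgeR), and the class held only 11, 37 and 19 cells in KO and 37, 171 and 230 in WT. Without the 2 highest cells of each library the levels were 139, 295 and 359.7 CPM in WT against 282, 616 and 530.4 CPM in KO, so KO replicate 1, which lost 2 of its 11 cells, fell into the WT range and the other KO libraries stayed above it.

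**Figure D4:**
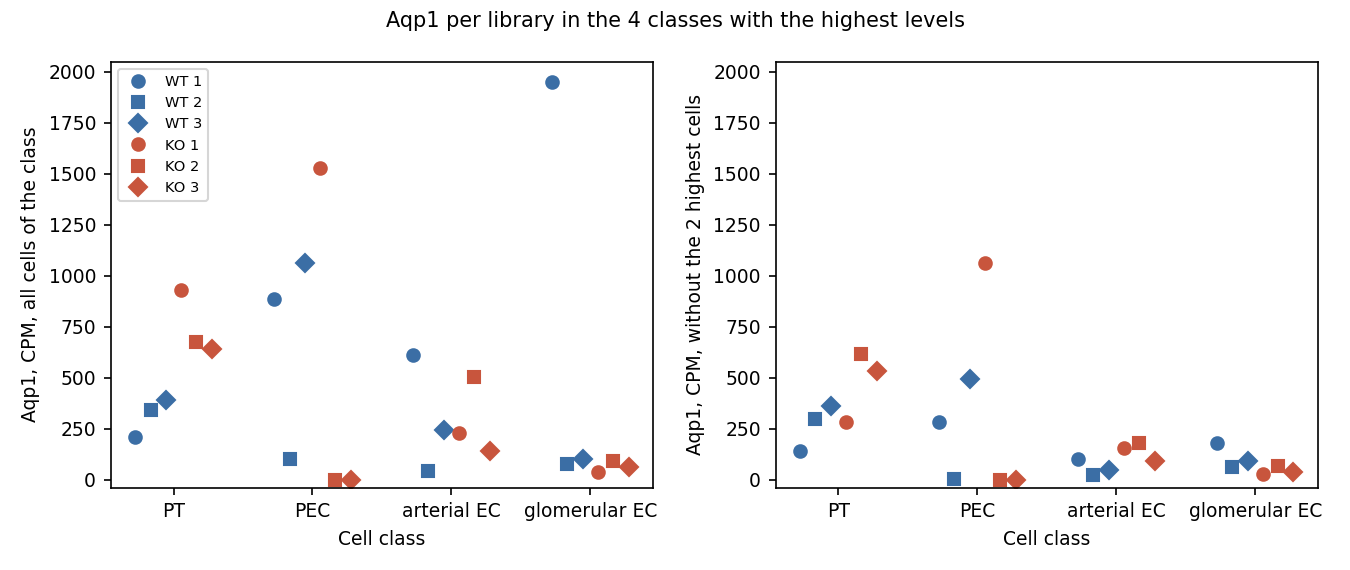
*Aqp1* level (CPM) in each library for the 4 classes with the highest levels, over all cells of the class (left) and without the 2 cells of each class and library with the most *Aqp1* UMIs (right). WT replicate 1 in glomerular EC-like cells goes from 1951 to 179.6 CPM, and KO replicates 2 and 3 in PEC-like cells are at 0 in both panels.

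*Aqp11*, the intracellular channel, was low everywhere. PT-like cells had 90.2 ± 35.7 CPM (SD, n = 6), 3.16 times the arterial EC-like mean of 28.5 ± 10.3 CPM, in 6 of 6 libraries and without overlap. CNT-like cells, with 13.3 ± 4.73 CPM, held the largest share of its 1375 UMIs, 26.5%, and PT-like cells held 16.5%. In PT-like cells the WT libraries were at 72.8, 72.5 and 76.6 CPM and the KO libraries at 155, 57.3 and 106 CPM. They overlapped, and the log2 fold change was 0.33 (standard error 0.38, adjusted p = 0.923 by edgeR). Over all cells every WT library (8.02, 10.04 and 9.05 CPM) was above every KO library (5.51, 6.10 and 6.46 CPM), with a log2 fold change of -0.56 that missed the threshold (standard error 0.16, adjusted p = 0.171 by edgeR). PT-like cells numbered 11 to 37 per library in KO and 37 to 230 in WT, and in such sums fewer cells of a type and less RNA per cell cannot be told apart. Within CNT-like cells the log2 fold change was -0.58 (standard error 0.26, adjusted p = 0.372 by edgeR). It was -0.53 in PC-like, -0.66 in IC-A-like and -0.48 in distal convoluted tubule-like cells. In IC-B-like, TAL-like and arterial EC-like cells it was -0.11, -0.0059 and 0.17, and none of these was called.

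Over the 16 tested classes the 8 genes passed the filter on low counts 47 times, and edgeR called 3 of these (1 higher and 2 lower in KO), with 17 at an unadjusted p under 0.05. DESeq2 called 4. A gene that passed the filter only through the group in which it was high had to differ, so these counts describe the tests and are no support for the list. Beside the classes with a call, no member was called by edgeR or DESeq2 in the other 13. In CNT-like cells 6 were tested and 2 had an unadjusted p under 0.05, where 2.59% of all genes were called. In IC-A-like cells it was 1 of 6 (background 0.447%), in TAL-like cells 3 of 5 (background 4.44%), in distal convoluted tubule-like (DCT-like) cells 0 of 2 (background 1.41%), in PT-like cells 2 of 3 (background 0.338%) and in PEC-like cells 0 of 2 (background 0.0775%). Among endothelial-like classes it was 0 of 3 in arterial (background 0.447%), 1 of 1 in capillary (background 0.544%) and 1 of 2 in glomerular EC-like cells (background 0.165%). It was 0 of 2 in podocyte-like (background 1.84%), 0 of 1 in mesangial-like (background 0.0696%) and 0 of 1 in macrophage-like cells (background 0.732%), and none was tested in T and NK-like cells (background 0.0257%). The smallest two-sided p that an exact permutation test of 3 against 3 libraries allows is 0.1, so single values were tested only through the fits across all genes. Besides *Aqp2* without KO replicate 3 and *Aqp6* without WT replicate 1, leaving out 1 library brought calls for *Aqp4* in IC-A-like cells (without WT replicate 2, log2 fold change -3.16, adjusted p = 0.0221 by edgeR), *Aqp2* in PT-like cells (without WT replicate 3, log2 fold change -3.31, adjusted p = 0.0363 by edgeR), *Aqp2* in TAL-like cells (without KO replicate 1, log2 fold change -1.02, adjusted p = 0.0324 by edgeR), *Aqp1* in PEC-like cells (without KO replicate 1, log2 fold change -11.08, adjusted p = 0.0405 by edgeR, where the KO libraries left were at 0 and the value is no bound) and *Aqp4* over all cells (without WT replicate 2, log2 fold change -2.55, adjusted p = 0.0137 by edgeR). In the comparison of PC-like with CNT-like cells it brought calls for *Aqp3* (without WT replicate 2, log2 fold change -0.50, adjusted p = 0.0432 by edgeR) and *Aqp4* (without KO replicate 1, log2 fold change -3.59, adjusted p = 0.00739 by edgeR).

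The 8 genes act within a wider pathway, from vasopressin's G protein through cyclic AMP to vesicle traffic, for which a list of 79 genes was used, 78 of them in the matrices. In PC-like cells 59 were tested and 9 were called, 5 higher and 4 lower in KO, with 16 at an unadjusted p under 0.05, where 2.44% of all genes were called. The median log2 fold change of the 59 was 0.043, against 0.0081 over all genes. Among receptors that act against vasopressin or tune it, 4 of 7 tested were called, of transcription factors at water channel genes 3 of 12, of phosphodiesterases 1 of 5 and of other transport genes driven by vasopressin 1 of 5. Of vesicle traffic and ubiquitin ligase genes 0 of 21 were called by edgeR (3 at an unadjusted p under 0.05), of protein kinase A and its anchors 0 of 6 (1), of Gs and adenylyl cyclases 0 of 2 (1) and of further receptors and water channels 0 of 1 (1).

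The largest change of the 9 was that of *Adora1*, the inhibitory adenosine A1 receptor, at 15.7, 17.4 and 9.66 CPM in WT libraries against 246, 202 and 119 CPM in KO libraries (log2 fold change 3.73, standard error 0.26, adjusted p = 3.53e-05 by edgeR). *Ednrb*, the endothelin B receptor, which counters vasopressin in the collecting duct, was at 51.7, 44.3 and 33.8 CPM in WT libraries against 5.39, 4.32 and 5.06 CPM in KO libraries (log2 fold change -3.07, standard error 0.26, adjusted p = 7.47e-05 by edgeR). Neither gene had overlapping groups. *Ptger1*, a prostaglandin E2 receptor, fell by 1.11 on the log2 scale (adjusted p = 0.00392 by edgeR), and *Kcnj10*, a basolateral potassium channel, fell by 1.05 (adjusted p = 0.00421 by edgeR). *Pde3b*, a phosphodiesterase that breaks down cyclic AMP, was at 215, 247 and 258 CPM in WT libraries against 710.3, 614 and 331 CPM in KO libraries (log2 fold change 1.21, standard error 0.22, adjusted p = 0.0125 by edgeR). *Jun*, part of the AP-1 factor, rose by 0.90 (adjusted p = 0.00654 by edgeR). The other 3 calls were named after their values were seen. They were the *Jun* partner *Fos* (0.89), the alpha-2A adrenergic receptor *Adra2a* (0.89) and the Ets factor *Elf5* (-1.87). Their adjusted p was 0.0295, 0.0395 and 0.0389 (edgeR), and their values under the alternatives are not given here. Without the libraries that held *Xist*, *Adora1*, *Ednrb*, *Kcnj10* and *Jun* were still called, while *Ptger1*, at -1.12 (adjusted p = 0.0517 by edgeR), and *Pde3b*, at 1.00 (adjusted p = 0.172 by edgeR), were not. The *Pde3b* call in PC-like cells was lost when KO replicate 1 or 2 was left out (adjusted p = 0.0555 to 0.0789 by edgeR). The marker sums that differed between genotypes in PC-like cells, given with *Aqp4*, stand beside these calls too, and their part in them was not tested.

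**Figure D5:**
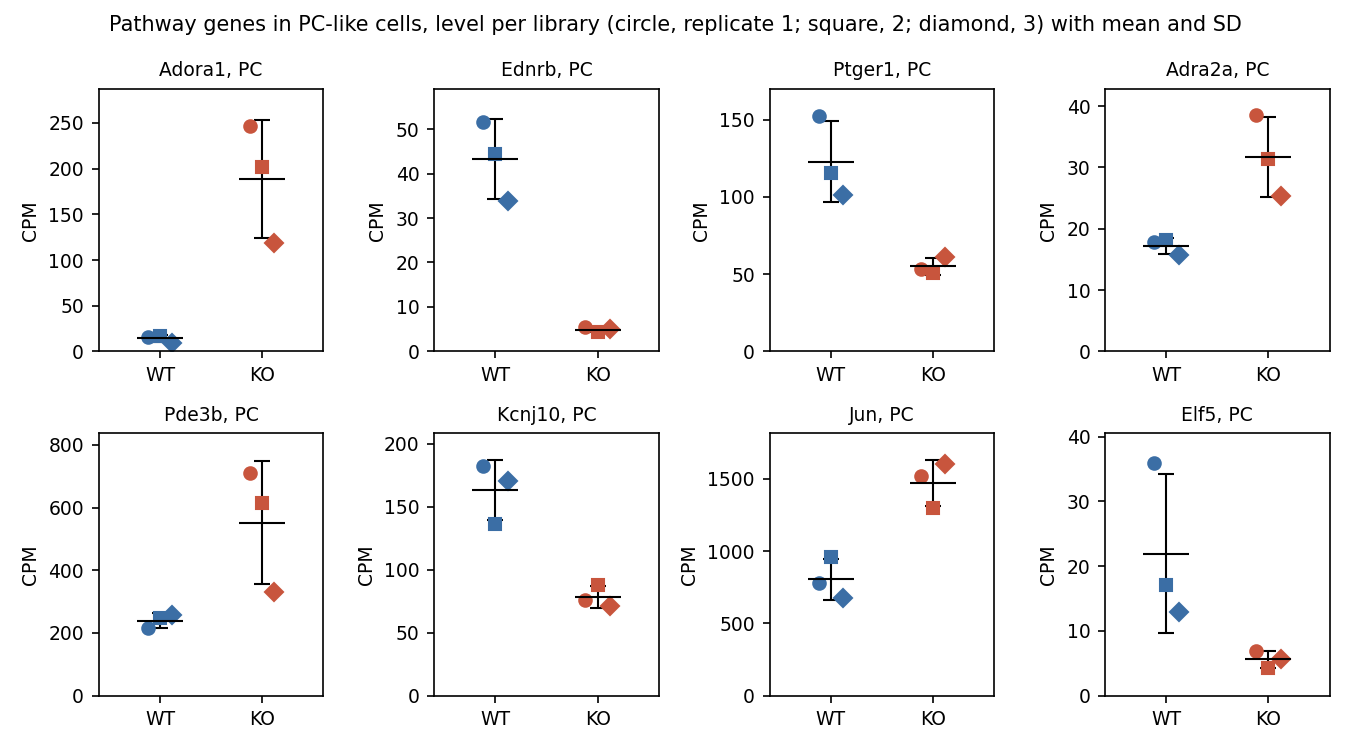
Level (CPM) in each library of 8 of the 9 pathway genes called in PC-like cells, WT and KO, with a line at the mean and bars of 1 SD; *Fos* is not drawn, and *Adra2a* and *Elf5* were added after their values were seen. In every panel the 3 WT and 3 KO points do not overlap, with *Adora1* at 9.66 to 17.4 CPM in WT and 119 to 246 CPM in KO.

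In the CNT-like class 3 of 59 pathway genes were called, beside 2.59% of all genes. This class joined unlike clusters, of 2300 and 432 cells, and the part of their mix in these calls was not tested. *Ednrb* fell there too, at 35.0, 36.5 and 27.4 CPM in WT libraries against 15.3, 14.8 and 13.6 CPM in KO libraries (log2 fold change -1.19, standard error 0.15, adjusted p = 0.000723 by edgeR). *Anxa2*, a membrane-binding annexin, was at 15.7, 18.9 and 13.1 CPM in WT libraries against 43.8, 41.4 and 34.7 CPM in KO libraries (log2 fold change 1.31, standard error 0.15, adjusted p = 0.000273 by edgeR), and *Pde4b*, a phosphodiesterase specific to cyclic AMP, rose by 1.04 (adjusted p = 0.00414 by edgeR). In IC-A-like cells 2 of 59 were called and in IC-B-like cells 2 of 58, beside 0.447% and 0.638% of all genes. In both *Ptger3*, the inhibitory prostaglandin receptor EP3, rose. It was at 22.2, 26.4 and 21.7 CPM in WT libraries against 60.6, 54.5 and 51.5 CPM in KO libraries in IC-A-like cells (log2 fold change 1.26, standard error 0.16, adjusted p = 0.00371 by edgeR) and at 41.9, 29.9 and 37.3 CPM in WT libraries against 70.6, 56.4 and 60.2 CPM in KO libraries in IC-B-like cells (log2 fold change 0.84, standard error 0.16, adjusted p = 0.0411 by edgeR). The second call in IC-A-like cells was *Ednrb* (-2.59, adjusted p = 0.0349 by edgeR), and in IC-B-like cells it was *Scnn1g*, the gamma subunit of the epithelial sodium channel (-0.93, adjusted p = 0.0354 by edgeR). Sums of principal cell and CNT markers in IC-A-like cells were also lower in KO without overlap. The 8 principal cell markers summed to 3371 to 4433 CPM in WT and 1771 to 2920.3 CPM in KO. The 6 CNT markers summed to 13974 to 16631 CPM in WT and 3394 to 9101 CPM in KO. Singly, *Fxyd4*, *Kcne1*, *Hsd11b2*, *S100g* and *Klk1* were lower in every KO library than in any WT library, and the other markers of these lists overlapped. The sum of the 4 type A markers was lower too, at 1274 to 1280.5 CPM in WT and 772 to 1240.0 CPM in KO. Among them *Slc4a1* overlapped, at 777, 831 and 804 CPM in WT against 523, 875 and 480 CPM in KO. *Kit*, *Slc26a7* and *Dmrt2* were lower in every KO library. The sum of the 4 type B markers was higher in KO without overlap, at 311 to 356 CPM in WT and 370.2 to 509 CPM in KO. It rested mainly on *Slc4a9*, at 309, 293 and 286 CPM in WT against 503, 380 and 326 CPM in KO. *Insrr* was lower in every KO library, at 18.9 to 30.5 CPM in WT against 0 to 13.5 CPM in KO. *Slc26a4* and *Hmx2* overlapped, and the part of these lists in the calls was not tested. The *Ednrb* call in IC-A-like cells was lost when WT replicate 1, 2 or 3 was left out (adjusted p = 0.0705 to 0.233 by edgeR). The *Ptger3* call in IC-B-like cells was lost when WT replicate 2 or 3, or KO replicate 1, 2 or 3 was left out (adjusted p = 0.0953 to 0.186 by edgeR). The *Scnn1g* call in IC-B-like cells was lost when WT replicate 2 or 3, or KO replicate 1 or 2 was left out (adjusted p = 0.0877 to 0.215 by edgeR). The *Ptger3* call in IC-A-like cells held in 18 of 18 alternatives.

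TAL-like cells had 7 of 56 pathway genes called. Of all genes tested in this class 4.44% were called, the largest all-gene share of any class. *Ptger3* moved opposite to the intercalated classes, at 186, 171 and 152 CPM in WT libraries against 103, 103 and 92.3 CPM in KO libraries (log2 fold change -0.77, standard error 0.093, adjusted p = 0.000624 by edgeR). *Scnn1a*, the alpha subunit of the sodium channel, was at 436, 417 and 412 CPM in WT libraries against 630.4, 609.8 and 598 CPM in KO libraries (log2 fold change 0.53, standard error 0.076, adjusted p = 0.00196 by edgeR), while its beta subunit *Scnn1b* fell by 1.79 (adjusted p = 0.0166 by edgeR) from levels of 3.13 to 3.73 CPM. *Prkar1b*, a regulatory subunit of protein kinase A, rose in TAL-like cells by 1.23 and in DCT-like cells by 1.06 (adjusted p = 0.00643 and 0.0111 by edgeR). *Hspa8*, a chaperone that binds AQP2, rose by 0.45 and *Pde4a* fell by 1.46 (adjusted p = 0.0129 and 0.0225 by edgeR). The seventh, named after its value was seen, was *Fos* (0.55, adjusted p = 0.0463 by edgeR), whose values under the alternatives are not given here. In macula densa-like cells, where *Avpr1a* fell, *Scnn1a* was the 1 pathway gene of 42 that was called (background 1.07%), at 230.4, 230.4 and 218 CPM in WT libraries against 387, 305 and 338 CPM in KO libraries (log2 fold change 0.63, standard error 0.15, adjusted p = 0.0361 by edgeR). The other calls were 1 each, of 54 genes in DCT-like (1.41% of all genes), 47 in arterial EC-like (0.447%), 36 in macrophage-like cells (0.732%) and 71 over all cells (0.593%). *Mal* rose in arterial EC-like cells (0.90, adjusted p = 0.0114 by edgeR), *Anxa2* fell in macrophage-like cells (log2 fold change -2.402, adjusted p = 0.0302 by edgeR), and over all cells *Adora1* rose by 2.20 (adjusted p = 0.0101 by edgeR). The *Scnn1a* call in macula densa-like cells was lost when WT replicate 1, 2 or 3, or KO replicate 1 or 3 was left out (adjusted p = 0.0583 to 0.174 by edgeR). The *Scnn1b* call in TAL-like cells was lost when WT replicate 3, or KO replicate 2 was left out (adjusted p = 0.055 to 0.0636 by edgeR). The *Pde4a* call in TAL-like cells was lost when WT replicate 2 or 3, or KO replicate 1 or 3 was left out (adjusted p = 0.064 to 0.105 by edgeR). The *Hspa8* call in TAL-like cells was lost when KO replicate 1 or 3 was left out (adjusted p = 0.0555 to 0.0583 by edgeR). The *Prkar1b* call in DCT-like cells was lost when KO replicate 1 was left out (adjusted p = 0.0761 by edgeR). The *Mal* call in arterial EC-like cells was lost when KO replicate 1 or 3 was left out (adjusted p = 0.0714 to 0.111 by edgeR). The *Anxa2* call in macrophage-like cells was lost when WT replicate 2, or KO replicate 1, 2 or 3 was left out (adjusted p = 0.0772 to 0.168 by edgeR). It held in 9 of 18 alternatives, with log2 fold changes from -2.69 to -0.028. In all classes together 27 of 750 tests were called, 16 higher and 11 lower in KO, for 19 genes in 9 classes, and 14 were called without the libraries that held *Xist*. Over the same classes between 0.0257% and 4.44% of all genes were called.

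The genes whose class pattern was most like each of the 8 were found by Pearson's r of mean log2(CPM + 1) over the 18 classes, among 14239 genes. The classes share libraries and depth, so r is a description. *Aqp2* was closest to *Kcne1*, *Aqp3*, *Frmpd4*, *Fam89a* and *Scnn1g* (r from 0.960 to 0.982) and *Aqp3* to *Aqp2*, *Kcne1*, *Hsd11b2*, *Fam89a* and *Dsc2* (0.962 to 0.980). The closest to *Avpr2* were *Gpc5*, *Spink12*, *Frmpd4*, *Spock3* and *Slc9a4* (0.943 to 0.962), and *Frmpd4* stood in the lists of both *Aqp2* and *Avpr2*. *Aqp6* was closest to *Slc4a1*, *Sult5a1*, *Dmrt2*, *Cpsf4l* and *Atp6v1g3* (0.929 to 0.965), and *Aqp4* to *Defb29*, *Adh1*, *Ces1e*, *1700007K13Rik* and *Tmem229a* (0.921 to 0.942). For *Avpr1a* the nearest were *Mab21l3*, *Ociad2*, *Tshr*, *A330048O09Rik* and *Fetub* (0.863 to 0.924). Lower values were reached for *Aqp1*, with *Ace*, *Serpina1d*, *Ccdc63*, *Podn* and *Olfm2* (0.849 to 0.883), and for *Aqp11*, with *Amacr*, *Slc16a13*, *Gm8098*, *Tbc1d13* and *Dnph1* (0.838 to 0.877). *Kcne1*, *Hsd11b2*, *Tmem229a*, *Slc4a1*, *Dmrt2* and *Atp6v1g3* were markers used to name the classes.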

How the data were processed

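Renal cortex cells of 3 WT and 3 KO mice were captured with BD Rhapsody. The authors deposited UMI counts per gene and barcode, not normalized, made with the BD whole transcriptome pipeline, and the submitters' processing notes name Scanpy 1.8 and mm10. Whether counting used strand is not given in the sources used here. Barcodes with 500 to 60000 UMIs, 200 to 8000 genes and at most 50% mitochondrial UMIs were kept. Scrublet's own threshold marked 0.0899 to 0.372% of cells as doublets, under 0.5% in every library, so the 6% with the highest scores were removed instead. Cells were clustered with scanpy 1.11.5 (2000 variable genes, 30 components, 15 neighbours, resolution 1) without the 8 genes and the 79 pathway genes, and clusters were named from marker lists. A minimum marker score of 1.0 and the joining of T and NK cells were set after the data were seen. Counts were summed per library and class (at least 20 cells, 10 for PT-like cells) and tested with edgeR 4.0.16 in R 4.3.3 (quasi-likelihood, TMM, filterByExpr with a minimum count of 10, Benjamini-Hochberg threshold 0.05). Named genes were the 8 members, the 6 called pathway genes with the smallest adjusted p in a class and the 5 genes most correlated with each member. The members and lists were chosen with earlier results of these data known. Alternatives were DESeq2 1.42.0, other scalings, filters, cell limits, doublet rules and class rules, a replicate block, and leaving out each library. The checks on libraries with 0 UMIs used 3 counts as the limit, and all intervals cover counting error only. The statistical scripts were tested on simulated data.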

Additional observations from a re-analysis of the deposited data

Results flagged for a closer look

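With 3 libraries per group, single outlying samples were not tested. For 6 pathway genes the genotype effect differed between PC-like and CNT-like cells by the interaction term (edgeR, mouse as a block, Benjamini-Hochberg adjustment). The CNT-like class joined unlike clusters, of 2300 and 432 cells, and the part of their mix in these results was not tested. The difference, PC minus CNT on the log2 scale, was 0.83 for *Pde3b* (adjusted p = 0.00141), -1.90 for *Ednrb* (adjusted p = 0.00200), 0.80 for *Jun* (adjusted p = 0.00200), -0.75 for *Kcnj10* (adjusted p = 0.00563), -1.04 for *Ptger1* (adjusted p = 0.00979) and -1.03 for *Anxa2* (adjusted p = 0.00993). These were 6 of 63 pathway genes tested, 2 higher and 4 lower, beside 1.13% of the 10934 genes tested. *Jun*, *Kcnj10* and *Ptger1* had log2 fold changes of 0.10, -0.31 and -0.09 in CNT-like cells, and *Anxa2* had 0.29 in PC-like and 1.31 in CNT-like cells. Of 17 alternatives, the interaction was called in 17 for *Jun*, 16 each for *Pde3b* and *Ednrb*, and 15 for *Anxa2*. It was called in 14 for *Kcnj10*, with values from -0.83 to -0.31, and in 12 for *Ptger1*.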

How the results depend on the processing

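The 3 calls among the 8 genes became 1 with a mitochondrial limit of 30%, 15 with no filter on low counts and 2 to 5 when 1 library was left out. The 27 pathway calls became 10 with a mitochondrial limit of 30%, 65 with no filter, 14 with only the 4 libraries without *Xist* and 14 to 25 when 1 library was left out. The share of all genes called under each alternative is not given here. The counts in this section therefore do not compare the 8 genes or the pathway with other genes. The comparison of PC-like with CNT-like cells, with 0 of the 8 genes called, gave 1 with no filter, 1 with only the 4 libraries without *Xist*, 4 with classes from per-cell scores and 0 to 1 when 1 library was left out. Over all cells, also with 0 called, the count was 2 with a mitochondrial limit of 30% and 1 each with DESeq2, no filter, a replicate block, a block for the libraries with *Xist* and only the 4 libraries without *Xist*, and 0 to 1 when 1 library was left out. The replicate block gave 3 calls among the 8 genes and 32 in the pathway; same-numbered mice did not deviate together (correlations from -0.165 to 0.288 over 17 fits, with 0 of them above 0.1 for all 3 numbers), so the numbers name the mice only. The block was not run for the comparison of PC-like with CNT-like cells, where the mouse is already a block. Of 1039 fold changes under alternatives, 867 kept direction and side of the threshold, 96 lost a call, 28 gained one and 48 changed sign, and the cause was not tested. The last group follows, with the reported log2 fold change in parentheses. *Aqp1* in PEC-like cells (-0.44) was 0.29 with no mitochondrial limit, 0.0023 with no doublet removal and -11.08 to 0.15 when 1 library was left out. *Aqp1* in arterial EC-like cells (0.012) was -0.72 with no mitochondrial limit, -0.77 with a lower limit of 1000 UMIs, -0.33 with only the 4 libraries without *Xist*, -0.59 with the members among the variable genes, -0.51 with classes from per-cell scores and -0.62 to 1.04 when 1 library was left out. *Aqp2* in IC-A-like cells (-0.16) was 1.54 with the members among the variable genes. *Aqp3* in CNT-like cells (0.19) was -0.017 with no mitochondrial limit, -0.022 with no doublet removal and -0.041 to 0.46 when 1 library was left out. *Aqp3* in PC-like cells (0.0010) was -0.012 with a mitochondrial limit of 30%, -0.0061 with no mitochondrial limit, -0.11 with a lower limit of 1000 UMIs, -0.029 with no filter on low counts, -0.062 with a replicate block, -0.0017 with a block for the libraries with *Xist*, -0.053 with only the 4 libraries without *Xist*, -0.0087 with the members among the variable genes, -0.062 with classes from per-cell scores and -0.27 to 0.23 when 1 library was left out. *Aqp6* in IC-A-like cells (0.19) was -0.11 with the members among the variable genes and -0.082 to 0.32 when 1 library was left out. *Avpr2* in CNT-like cells (0.29) was -0.036 with no mitochondrial limit. *Avpr2* in PC-like cells (0.0018) was -0.031 with a mitochondrial limit of 30%, -0.00065 with no mitochondrial limit, -0.074 with a lower limit of 1000 UMIs, -0.027 with no filter on low counts, -0.091 with only the 4 libraries without *Xist*, -0.014 with classes from per-cell scores and -0.11 to 0.078 when 1 library was left out. *Avpr1a* in IC-B-like cells (0.16) was -0.064 with a mitochondrial limit of 30% and -0.068 with no mitochondrial limit. *Aqp6* in PC-like cells (-1.41) was 0.30 with classes from per-cell scores. *Avpr1a* in IC-A-like cells (-0.0069) was -0.13 to 0.12 when 1 library was left out. *Aqp11* in PT-like cells (0.33) was -0.15 to 0.70 when 1 library was left out. A mitochondrial limit of 30% left no macula densa-like class. Depth limits *Aqp4*, with 834 UMIs in all, and PT-like cells, with 11 to 230 per library.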
